A study of Homo sapiens with 6 samples.

Results

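The 37 genes described here encode proteins of mismatch repair (6 genes), base excision repair with single-strand break repair (19) and nucleotide excision repair (12). They were taken by symbol, and each of the 37 had a row among the 16229 genes of the count table. Counts came from 6 RNA-seq libraries of MC38 cells, labelled colorectal cancer cells of wild-type genotype: 3 libraries labelled GCA, from cells kept with GCA for 24 hours, and 3 labelled CON, from cells kept without it. The series' title names glycocholic acid, a conjugated bile acid, and GCA is read as that compound. The sources used here give no dose, and the sample titles call the GCA samples fa, an unexplained name. MC38 is known as a mouse line, yet the labelled organism is human, the build named is hg38, and the table lists human symbols. The extraction protocol speaks of heart samples. These conflicts could not be settled. No label ties a replicate to its own culture, so the p-values rest on a spread between libraries that may be technical.

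Mismatch repair removes bases misincorporated during replication: a MutS dimer finds the mismatch, a MutL dimer is recruited, and the exonuclease EXO1 removes the error-bearing strand. Base excision repair starts with a glycosylase that cuts out a damaged base; an endonuclease opens the strand, DNA polymerase beta fills the gap, and LIG3 with its scaffold XRCC1 seals it, while PARP1 and PARP2 sense the break. Nucleotide excision repair removes bulky lesions such as ultraviolet photoproducts. XPC or a stalled RNA polymerase marks the lesion, the TFIIH helicases open the helix, and nucleases cut on either side. Loss of mismatch repair is known in colorectal tumours as a source of microsatellite instability.

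Of the 37 genes, 36 passed the filter on low counts and were tested. In GCA 12 fell and 2 rose (edgeR's quasi-likelihood test, Benjamini-Hochberg adjusted p under 0.05 over all 12604 tested genes). Of all tested genes 18.1% fell and 18.3% rose. Among the repair genes that is 33.3% lower and 5.56% higher. By pathway, 3 of 6 mismatch repair genes fell, 6 of 19 base excision repair genes fell and 1 rose, and 3 of 11 tested nucleotide excision repair genes fell and 1 rose. The median log2 fold change was -0.31 over the 36 repair genes and -0.04 over all tested genes. Only EXO1 and PARP2, 2 of the 36, had a log2 fold change beyond 1 in either direction.

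The direction of a gene's change went with the base composition of its transcript. Both risers had GC-rich transcripts (median 62.8% GC), while the 12 that fell had a median of 43.1%. Over the 36 genes fold change and GC content correlated at r = 0.698 (Spearman's rho 0.701), and over 12562 tested genes at r = 0.480 (rho 0.563). These are descriptions across genes that share the same 6 libraries. With library-specific offsets for GC content and gene length, 15 of the 36 genes fell and 0 rose, and the median was -0.30. Under the same fit 17.1% of all tested genes fell (2152) and 12% rose (1516). Of the 14 calls 10 were kept in the same direction, against 51.9% of all calls, and those lost were PMS1, ERCC8, MPG and ERCC2. The part of GC content in the fold changes was not otherwise tested.

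**Figure D1:**
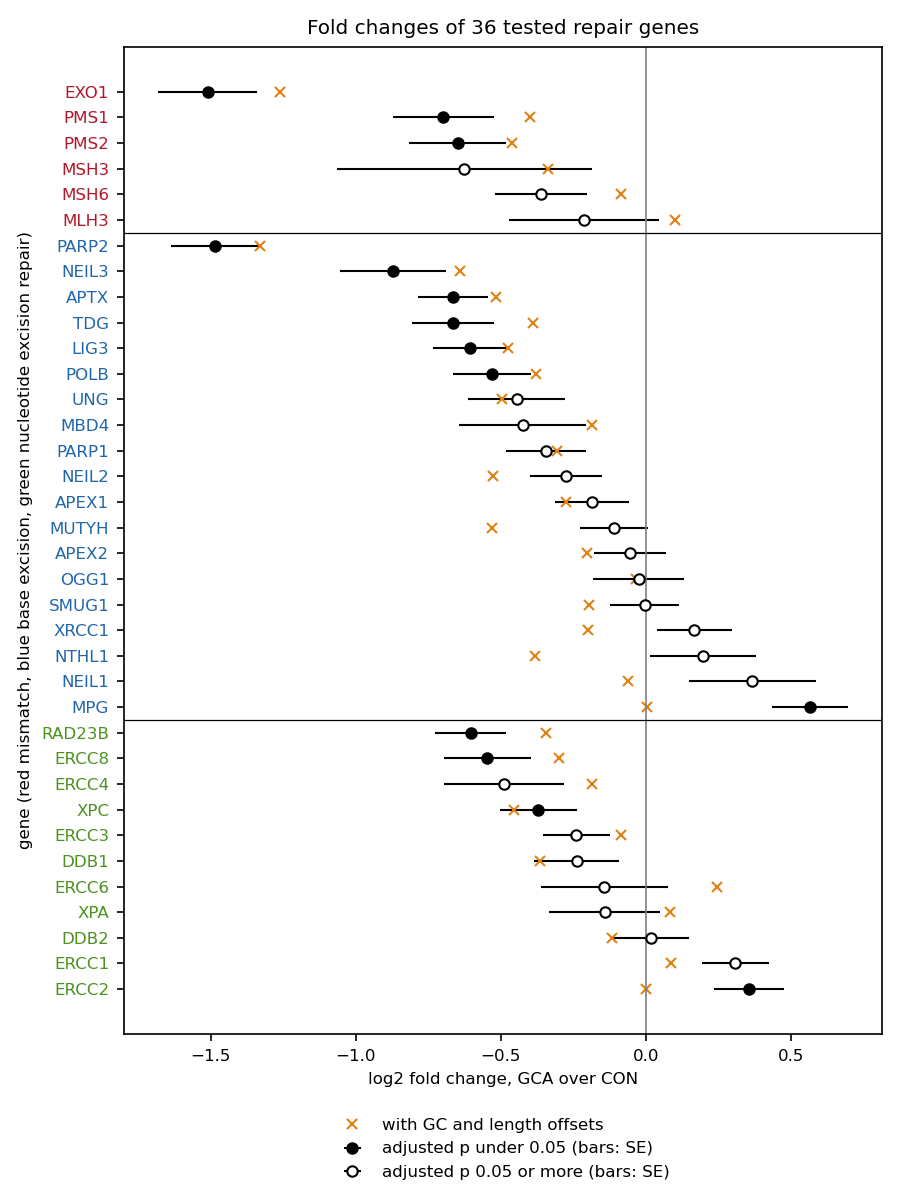
The log2 fold change (GCA over CON) of each tested repair gene is a circle with its standard error as a bar, filled where the adjusted p is under 0.05, and an orange cross gives the value with offsets for GC content and length. EXO1 and PARP2 lie furthest left under both fits, while MPG and ERCC2 move to about 0 with the offsets.

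**Figure D2:**
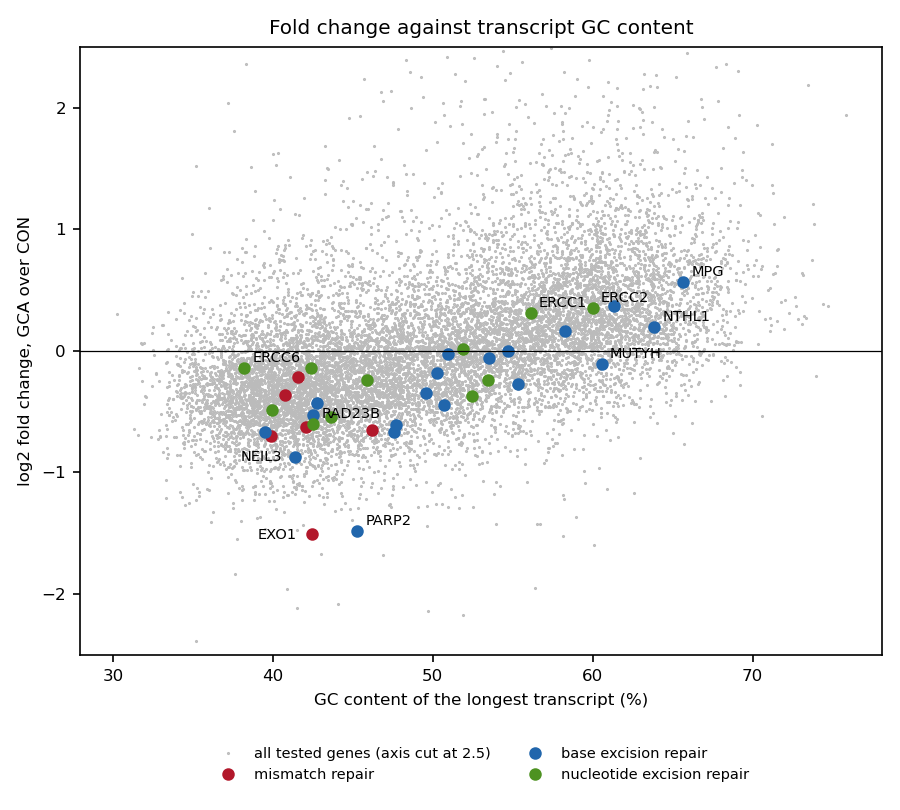
Each point is a tested gene, with the GC content of its longest transcript (%) on the horizontal axis and its log2 fold change on the vertical axis. Repair genes are coloured by pathway; EXO1 and PARP2 lie below most genes of like GC content, and MPG and ERCC2 sit among the GC-rich genes that are high in GCA.

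Promoter sequences are shown for the pair of genes that fell most and the pair that rose, since these are the ends of the range. They come from RefSeq (GRCh38.p14), run from 250 bases before to 50 after an annotated start, and are written 5′ to 3′ on the gene's strand. Capitals mark the E2F core (written TTCCCGC, or with other middle letters as TTGGCGC, also as TTCGCGC, and lastly as TTGCCGC) and the cyclic AMP response element TGACGTCA, searched on both strands. The windows are chr1:241847954-241848253 (EXO1, plus strand), chr14:20343385-20343684 (PARP2, plus), chr16:77975-78274 (MPG, plus) and chr19:45370524-45370823 (ERCC2, minus).
EXO1: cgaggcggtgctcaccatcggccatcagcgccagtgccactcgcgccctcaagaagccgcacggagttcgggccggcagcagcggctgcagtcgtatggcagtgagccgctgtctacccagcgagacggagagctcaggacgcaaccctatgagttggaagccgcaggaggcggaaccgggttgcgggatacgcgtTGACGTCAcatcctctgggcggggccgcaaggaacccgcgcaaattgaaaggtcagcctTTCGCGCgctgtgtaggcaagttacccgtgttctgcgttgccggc
PARP2: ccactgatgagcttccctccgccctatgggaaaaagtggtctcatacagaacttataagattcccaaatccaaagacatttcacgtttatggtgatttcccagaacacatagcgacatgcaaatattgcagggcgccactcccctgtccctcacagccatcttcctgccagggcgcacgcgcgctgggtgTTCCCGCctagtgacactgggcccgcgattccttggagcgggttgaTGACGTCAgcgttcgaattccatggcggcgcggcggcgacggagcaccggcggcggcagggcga
MPG: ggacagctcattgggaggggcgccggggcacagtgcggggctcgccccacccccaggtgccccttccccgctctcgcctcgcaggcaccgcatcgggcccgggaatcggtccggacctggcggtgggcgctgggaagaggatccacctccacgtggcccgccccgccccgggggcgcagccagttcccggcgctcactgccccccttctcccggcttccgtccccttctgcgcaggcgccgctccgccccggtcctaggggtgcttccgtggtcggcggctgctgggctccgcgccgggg
ERCC2: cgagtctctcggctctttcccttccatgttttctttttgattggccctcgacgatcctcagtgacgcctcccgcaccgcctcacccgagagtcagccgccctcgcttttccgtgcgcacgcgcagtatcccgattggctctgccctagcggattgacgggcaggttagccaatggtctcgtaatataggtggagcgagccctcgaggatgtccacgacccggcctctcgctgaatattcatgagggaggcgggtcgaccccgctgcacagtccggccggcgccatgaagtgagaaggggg
The printed windows of EXO1 and PARP2 each held 1 E2F core and 1 TGACGTCA, and those of MPG and ERCC2 held neither. EXO1 has a second window in that collection (chr1:241848481-241848780), at another annotated start, which held 0 of either motif.

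Of the 37 genes, 34 had a promoter in that collection, some with several windows. An E2F core was found in 19 of the 34, against 22.9% of 12797 genes in the table with a promoter and 12.97% of all 35116 windows. Of the genes that fell, 8 of 11 with a promoter held it, and of those not called 11 of 20 did. The letters TGACGTCA were found in 4 of the 34, against 3.37% of genes and 1.85% of windows. These 4 were EXO1, PARP2, PMS2 and APTX, and each fell. Among all 389 tested genes with TGACGTCA 21.6% fell and 13.1% rose, and among the 2569 with an E2F core 23.7% fell and 13.9% rose; of all 10155 tested genes with a promoter 18.5% fell and 17.2% rose. The 6 other motifs searched, also on both strands, were the GC box GGGCGG (29 of 34 genes, against 72.0% of genes and 45.0% of windows), CCAAT (20, 42.6% and 34.6%), the ETS core CCGGAAG (7, 19.1% and 10.3%), the palindromic NRF1 site (3, 2.204% and 1.24%), the E-box CACGTG (7, 11.9% and 7.26%) and the CHR TTTGAA (7, 14.4% and 15.2%). CCAAT can overlap the E2F core TTGGCGC by 4 letters. TGACGTCA and the E2F core were not alone in leaning to falls. Among tested genes with CHR 25.04% fell and 11.48% rose, and with the ETS core 22.34% and 10.75%. With the NRF1 site 20.61% fell and 7.252% rose, and with the E-box 21.06% and 15.52%. The GC box (18.39% and 17.84%) and CCAAT (18.96% and 16.29%) lay near all tested genes with a promoter. Of the repair genes 1 of 7 with CHR fell, and 1 of 7 with the ETS core. A match is only a description of these letters.

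EXO1 (chromosome 1, 241847986 to 241889939, GRCh38), the exonuclease of mismatch repair, had the largest fall of the mismatch repair genes. In CPM, the read count scaled to the library's total, it stood at 23.3, 21.6 and 21.4 in CON 1 to 3 and at 9.18, 8.04 and 6.02 in GCA 1 to 3. Every GCA library lay below every CON library. The log2 fold change was -1.51 ± 0.17 (SE, n = 3 and 3; adjusted p = 6.02e-05 in edgeR's test), a change of -64.9%. With the GC and length offsets it was -1.26 (adjusted p = 0.000783).

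Of the MutL subunits, PMS2, which forms the main MutL dimer and carries its endonuclease, went from 20.9, 20.5 and 22.6 CPM to 16.7, 13.2 and 10.8 CPM. The groups did not overlap (log2 fold change -0.65 ± 0.17, adjusted p = 0.00939), but the call was lost without GCA 3 (adjusted p = 0.0564; 7.61e-05 to 0.0564 over all alternatives). PMS1, another partner in MutL dimers, went from 14.5, 15.3 and 15.3 CPM to 7.15, 10.7 and 9.95 CPM, again without overlap (-0.70 ± 0.17, adjusted p = 0.00791). With the offsets PMS1 stood at -0.40 and did not pass (adjusted p = 0.0706). MLH3, the MutL subunit best known from meiotic recombination, was sparse, with counts of 41, 72 and 75 in CON and 50, 61 and 57 in GCA, which overlap (-0.21, adjusted p = 0.542).

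The MutS subunits did not pass. MSH6, which recognises base mismatches, went from 34.8, 26.5 and 25.2 CPM to 25.3, 23.1 and 19.0 CPM, and its groups overlapped at their edges (-0.36 ± 0.16, adjusted p = 0.0913). With the replicate number as a block its adjusted p was 0.0372, and it stood at -0.09 with the offsets. MSH3, whose dimer recognises longer insertion and deletion loops, was the nearest to 0 in every library of the 6 mismatch repair genes described here. The CON libraries held 10, 25 and 23 of its reads and the GCA libraries 19, 13 and 7, of 18057453 to 20531612 in total. CON 1 and GCA 3 were lowest in their groups, and the groups overlapped. Per length it stood at 0.118, 0.312 and 0.281 FPKM in CON and 0.208, 0.148 and 0.0809 FPKM in GCA, while MSH6 ran from 3.97 to 6.99 FPKM. Its log2 fold change of -0.63 ± 0.44 did not pass (adjusted p = 0.279), but without replicate 1 of both groups it was -1.24 (adjusted p = 0.0245). Summed over the 6 mismatch repair genes, the level was 89.0 to 96.4 CPM in CON and 49.1 to 61.7 CPM in GCA. In bulk RNA, fewer cells with a transcript and less of it per cell cannot be told apart.

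**Figure D3:**
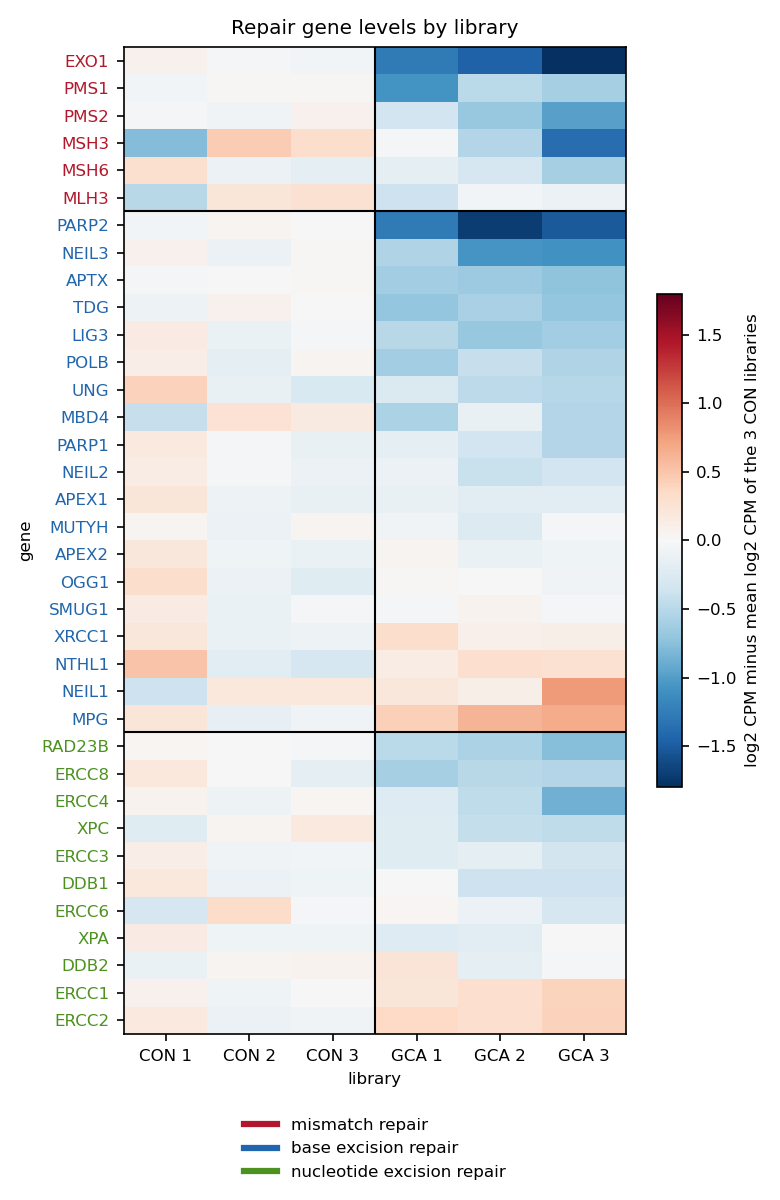
Each cell gives a gene's log2 CPM in a library minus its mean over the 3 CON libraries, with genes grouped by pathway and ordered by fold change. EXO1, PARP2 and NEIL3 are low in all 3 GCA libraries, MPG is high in all 3, and CON 1 departs from CON 2 and CON 3 for MSH3, UNG, NTHL1 and MBD4.

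Among the break-sensing enzymes of base excision repair, PARP2 (chromosome 14, 20343635 to 20357904) changed most. It went from 26.1, 27.7 and 26.8 CPM in the CON libraries to 11.1, 8.25 and 9.38 CPM with GCA, with no overlap (-1.49 ± 0.15, adjusted p = 2.57e-05; with the offsets -1.33, adjusted p = 0.000222). PARP1, the more abundant enzyme that makes most poly(ADP-ribose) at breaks, went from 361, 312 and 292 CPM to 285, 253 and 222 CPM. Its groups did not overlap either, but the difference did not pass (-0.34 ± 0.14, adjusted p = 0.0648). Its adjusted p was 0.0229 with the replicate block, 0.0374 with upper-quartile scaling, 0.0240 with library size alone and 0.0193 to 0.0403 on log2 FPKM values.

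Of the gap-filling, ligation and end-processing genes 3 of 4 fell (75%, against 18.1% of all tested genes). APTX, which removes AMP left by failed ligation, went from 32.2, 32.3 and 33.2 CPM to 21.1, 20.8 and 19.7 CPM (-0.67 ± 0.12, adjusted p = 0.00123). LIG3, the ligase of this pathway, went from 37.5, 31.3 and 33.3 CPM to 23.9, 21.2 and 21.9 CPM (-0.61 ± 0.13, adjusted p = 0.00313). POLB, the gap-filling polymerase, went from 31.7, 26.1 and 30.2 CPM to 18.9, 22.0 and 20.1 CPM (-0.53 ± 0.13, adjusted p = 0.00856). In these 3 genes no GCA library reached the lowest CON library, and the calls were kept with the offsets at -0.52, -0.47 and -0.38. XRCC1, the scaffold that holds LIG3, went the other way without passing, at 53.6, 43.1 and 43.8 CPM in CON against 58.0, 49.7 and 49.9 CPM with GCA (0.17 ± 0.13, adjusted p = 0.324). Without CON 1 it passed as a rise (0.27, adjusted p = 0.0403), and with the offsets it stood at -0.20 (adjusted p = 0.168).

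The AP endonucleases, which cut the strand where a base has been removed, did not pass. APEX1, the main one, was the most abundant repair gene per length and went from 196, 180 and 173 FPKM to 161, 155 and 154 FPKM. In CPM its groups were apart only narrowly, with 228.6 in CON 3 and 227.4 in GCA 1. The log2 fold change of APEX1 was -0.19 ± 0.13 (adjusted p = 0.267), and it passed with the offsets (-0.27, adjusted p = 0.0450). APEX2 overlapped between groups (-0.06, adjusted p = 0.746).

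Glycosylases of uracil and thymine lesions gave 1 fall in 4 (25%, against 18.1% of all tested genes). TDG, which removes thymine from G:T mispairs and oxidized methylcytosine, went from 17.0, 19.1 and 18.1 CPM to 11.1, 12.01 and 11.1 CPM, with no overlap (-0.66 ± 0.14, adjusted p = 0.00341; -0.39 with the offsets, adjusted p = 0.0230). UNG, the main uracil glycosylase, was high in CON 1, at 230 CPM against 157 and 142 in CON 2 and CON 3, and stood at 143, 124 and 121 CPM with GCA, so that GCA 1 lay just above CON 3. Its log2 fold change of -0.45 ± 0.17 missed the threshold (adjusted p = 0.0518) and passed it in 10 of 20 alternatives, among them the replicate block (0.0165) and the offsets (0.0373). Without CON 1 the value was -0.21 (adjusted p = 0.0885). MBD4, which acts on mispairs at methylated CpG sites, had counts of 97, 165 and 156 in CON and 98, 129 and 96 in GCA (-0.43 ± 0.22, adjusted p = 0.144). CON 1 was again apart, here low, and without it MBD4 passed (-0.61, adjusted p = 0.0137). SMUG1, a second uracil glycosylase, ran from 33.2 to 40.2 CPM in CON and from 35.2 to 37.8 CPM in GCA (log2 fold change -0.00, adjusted p = 0.979).

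Among the glycosylases of oxidized bases 1 of 6 fell (16.7%, near the 18.1% of all tested genes). NEIL3, which is known from proliferating cells, was that gene. It went from 14.8, 13.04 and 14.1 CPM to 9.63, 6.72 and 6.55 CPM, without overlap (-0.87 ± 0.18, adjusted p = 0.00302; -0.64 with the offsets, adjusted p = 0.0255). NEIL1 had counts of 108, 171 and 172 in CON and 181, 166 and 255 in GCA, which overlap (0.37 ± 0.22, adjusted p = 0.206). NEIL2 went from 77.4, 69.5 and 65.5 CPM to 65.9, 53.7 and 55.7 CPM (-0.28 ± 0.12, adjusted p = 0.0985), with GCA 1 just above CON 3. MUTYH, which removes adenine opposite oxidized guanine, stood at 47.6, 42.9 and 47.7 CPM and then at 43.9, 38.9 and 45.1 CPM, which overlap (-0.11 ± 0.12, adjusted p = 0.480). With the offsets NEIL2 and MUTYH passed as falls of -0.53 each (adjusted p = 0.00491 and 0.00300). NTHL1, a glycosylase of oxidized pyrimidines, showed how far a value can hang on 1 library. It stood at 71.2 CPM in CON 1 but 43.5 and 40.5 CPM in CON 2 and CON 3, with 55.0, 62.0 and 60.7 CPM under GCA. Its log2 fold change was 0.20 ± 0.18 (adjusted p = 0.418), 0.49 without CON 1 (adjusted p = 0.00123) and -0.38 with the offsets (adjusted p = 0.0416). TSC2, on the opposite strand, covers 16.5% of its exon bases in GENCODE release 29. OGG1, the main glycosylase of oxidized guanine, ran from 16.5 to 23.9 CPM in CON and from 18.4 to 19.6 CPM in GCA (-0.03, adjusted p = 0.910).

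MPG, the glycosylase of alkylated bases (chromosome 16, 77007 to 85846), was the repair gene with the largest rise. It went from 78.1, 60.3 and 63.9 CPM in CON to 90.3, 102 and 107 CPM under GCA, and every GCA library lay above every CON library (0.56 ± 0.13, adjusted p = 0.00532). With the offsets its log2 fold change was 0.00 (adjusted p = 0.977). Its transcript has the highest GC content of the 37, at 65.6%, and NPRL3, on the opposite strand, covers 27.3% of its exon bases.

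In nucleotide excision repair the damage-recognition genes gave 2 falls in 4 (50%, against 18.1% of all tested genes). RAD23B, the partner that stabilises XPC, went from 325, 314 and 309 CPM to 225, 212 and 186 CPM, far from overlapping (-0.60 ± 0.12, adjusted p = 0.00249; -0.35 with the offsets, adjusted p = 0.0449). XPC, the sensor of helix distortion, went from 39.8, 48.0 and 52.6 CPM to 39.9, 34.7 and 33.9 CPM (-0.37 ± 0.13, adjusted p = 0.0428). CON 1 and GCA 1 were level in XPC, and the call was lost without CON 2, CON 3, GCA 2 or GCA 3 (adjusted p = 0.133, 0.208, 0.135 and 0.160), with a filter of 1 CPM in 3 libraries (0.0540) and on log2 FPKM values (0.0637 to 0.122). DDB1, the ligase adaptor of the ultraviolet damage sensor, had the second highest level of the 37 genes per length, at 139, 128 and 129 FPKM in CON and 128, 99.4 and 98.6 FPKM with GCA. In CPM GCA 1 lay among the CON libraries, at 554 against 627, 512 and 521. The log2 fold change of DDB1 was -0.24 ± 0.15 (adjusted p = 0.217). It passed with block and offsets together (-0.36, adjusted p = 0.00808) and without replicate 1 of both groups (adjusted p = 0.00336). DDB2, the sensor subunit, overlapped between groups (0.02, adjusted p = 0.924).

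Of the transcription-coupled factors, ERCC8 (CSA), part of the ligase at stalled polymerases, went from 20.5, 17.8 and 15.9 CPM to 11.9, 12.7 and 12.5 CPM without overlap (-0.55 ± 0.15, adjusted p = 0.0129). With the offsets it stood at -0.30 and did not pass (adjusted p = 0.225). The processed pseudogene GNL3LP1, on the same strand, covers 28.3% of its exon bases. ERCC6 (CSB) was sparse, with counts of 75, 125 and 98 in CON and 107, 94 and 80 in GCA (-0.14, adjusted p = 0.635).

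Of the TFIIH helicase genes 1 passed, as a rise, while 18.3% of all tested genes rose. ERCC2 (XPD; chromosome 19, 45349837 to 45370573) went from 135, 111 and 114 CPM to 154, 147 and 159 CPM, and the groups did not overlap (0.35 ± 0.12, adjusted p = 0.0350). This call was lost without any library other than CON 1 (adjusted p = 0.0695 to 0.150), and with the offsets the value was -0.00 (adjusted p = 0.993). ERCC3 (XPB) went from 52.8, 46.5 and 47.1 CPM to 41.9, 43.0 and 38.9 CPM, also without overlap, but did not pass (-0.24 ± 0.11, adjusted p = 0.117). XPA, which verifies the lesion, had counts of 95 to 111 in all libraries (-0.14, adjusted p = 0.587).

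None of the incision nuclease genes passed. ERCC1, the non-catalytic subunit of the 5′ nuclease, went from 142, 129 and 135 CPM to 156, 167 and 179 CPM without overlap (0.31 ± 0.12, adjusted p = 0.0516). With the replicate block its adjusted p was 0.0425, and it stood at 0.09 with the offsets. ERCC4 (XPF), its catalytic partner, had counts of 125, 120 and 132 in CON and 115, 96 and 70 in GCA (-0.49 ± 0.21, adjusted p = 0.0793; 0.0172 without replicate 1 of both groups). ERCC5 (XPG), the 3′ nuclease, did not reach the filter, with counts of 8, 6 and 8 in CON and 3, 11 and 1 in GCA. Of its exon bases in GENCODE release 29, 63.2% are shared on the same strand with the read-through gene BIVM-ERCC5 or with BIVM. The sources used here do not say how the counting treated shared bases, and the part of this sharing in the low counts was not tested.

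Without regard to the test, 15 of the 36 genes had all GCA libraries below all CON libraries, against 24.3% of all tested genes, and 3 had them all above, against 24.1%. Per length the 37 genes spanned a wide range in CON, from 183 FPKM on average (APEX1), 132 (DDB1), 81.8 (PARP1) and 76.9 (UNG) down to 0.434 (MLH3), 0.237 (MSH3), 0.176 (ERCC6) and 0.102 (ERCC5). The mismatch repair genes took the ranks from 21 (MSH6) to 35 (MSH3) of 37. The deposited gene lengths differ from the exon bases in GENCODE release 29 in both directions, which moves a gene's FPKM beside that of others. DDB1 has 4245 against 13950 bases, POLB 1439 against 4106, APTX 8754 against 3789, ERCC8 9920 against 5448, ERCC6 30621 against 16737 and XPA 2750 against 1833. PARP2 ranked 18 in CON and 22 in GCA, and EXO1 ranked 23 and 28.

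**Figure D4:**
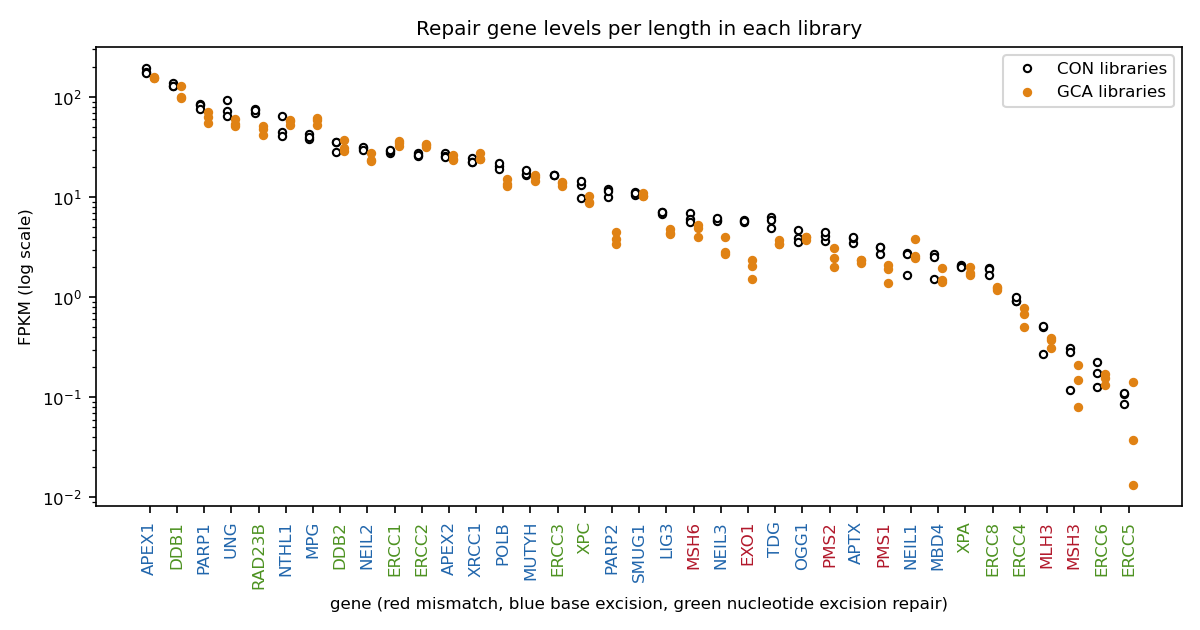
Each gene's FPKM (log scale) is shown in every library, open for CON and filled for GCA, in the order of the CON mean. Levels run from APEX1 at 154 to 196 FPKM down to ERCC5, and the 3 GCA points lie clear below the CON points for PARP2 and EXO1.

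Ratios between genes whose products act together do not depend on the scaling of the libraries. In all 8 pairs were compared, chosen after their values had been seen, with an exact two-sided permutation test that cannot give a p below 0.1 for 3 libraries against 3. The FPKM of PARP2 was 0.119, 0.146 and 0.151 of that of PARP1 in CON and 0.0641, 0.0535 and 0.0695 in GCA, a log2 difference of -1.15. ERCC1 stood at 30.8, 31.0 and 29.8 times ERCC4 in CON and 41.3, 51.5 and 73.6 times in GCA (log2 difference 0.82). XRCC1 stood at 3.43, 3.30 and 3.15 times LIG3 in CON and 5.81, 5.62 and 5.46 times in GCA (0.77). ERCC2 stood at 1.67, 1.56 and 1.59 times ERCC3 in CON and 2.41, 2.24 and 2.68 times in GCA (0.60).

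In these 4 pairs and in DDB2 over DDB1 (0.25) the groups did not overlap, with p = 0.1 in the exact permutation test and 0.16 after adjustment over the 8 pairs, so none passed. XPC over RAD23B (0.24), ERCC6 over ERCC8 (0.41) and MSH6 over MSH3 (0.28) overlapped. In the pairs ERCC1 with ERCC4, XRCC1 with LIG3 and ERCC2 with ERCC3 the first gene has the GC-richer transcript (56.1% against 39.9%, 58.3% against 47.7% and 60.0% against 45.9%). PARP2 and PARP1 are closer, at 45.2% and 49.6%.

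**Figure D5:**
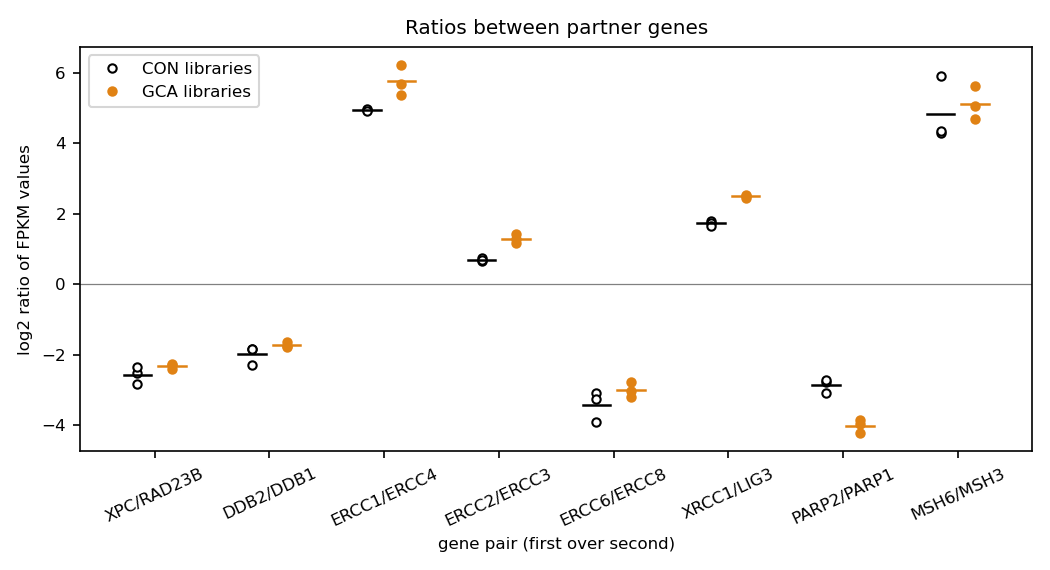
The log2 ratio of FPKM values between partner genes is shown for every library, open for CON and filled for GCA, with group means as lines. The GCA points lie below the CON points for PARP2 over PARP1 and above them for ERCC1 over ERCC4, ERCC2 over ERCC3 and XRCC1 over LIG3.

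Other genes of these pathways were followed through 3 lists with 49 genes, all tested, of which 18 fell and 1 rose (36.7% and 2.04%, against 18.1% and 18.3% of all tested genes). Of 19 genes for resynthesis, the sliding clamp and ligation, which serve all 3 pathways and replication, 13 fell (68.4%) and 0 rose (median -0.46). The clamp loader genes RFC4, RFC3 and RFC5 led the list, at -1.18 ± 0.13, -0.92 ± 0.13 and -0.83 ± 0.12 (adjusted p = 5.99e-05, 0.000237 and 0.000261). PCNA, the clamp itself, went from 419, 380 and 330 CPM to 271, 202 and 212 CPM (-0.72 ± 0.15, adjusted p = 0.00263). Of 12 further genes of base excision and strand break repair 1 rose and 1 fell (8.33% each, median -0.07). The gene that fell was DUT, which keeps uracil out of the nucleotide pool (-0.54 ± 0.13, adjusted p = 0.00539). Of 18 further genes of nucleotide excision repair 4 fell (22.2%, near the share of all tested genes) and 0 rose (median -0.18), led by USP7, a deubiquitinase (-0.74), GTF2H3, a TFIIH core subunit (-0.67), and CUL4B, a ligase scaffold (-0.54).

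The counts of calls moved with single libraries. Leaving out CON 1 gave 5 rises and 13 falls among the 36 repair genes, while 25.3% of all tested genes rose and 27.3% fell. Leaving out CON 2 or CON 3 gave 1 rise each and 11 or 12 falls, while 13.6% or 14.7% of all tested genes rose and 10.2% or 12% fell. Leaving out GCA 2 or GCA 3 gave 1 rise each and 11 or 10 falls, while 13.7% or 11.8% of all tested genes rose and 11.7% or 8.88% fell. Leaving out GCA 1 gave 2 rises and 12 falls (16% and 13.2% of all tested genes). Without replicate 1 of both groups there were 5 rises and 19 falls, and 29.3% of all tested genes passed in each direction. The replicate block gave 3 rises and 15 falls (20% and 21% of all tested genes).

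Total counts per library ran from 18057453 to 20531612. Replicate 1 stood apart in both groups, more so in CON. The second principal component, with 18.1% of the variance, put CON 1 at 34.47 and CON 2 and CON 3 at -14.71 and -17.75. GCA 1 lay to the same side at 8.099, with GCA 2 and GCA 3 at -5.781 and -4.329. Epithelial keratin genes and EPCAM were abundant, with an epithelial list sum of 6078 to 7891 CPM in CON and 8740 to 10482 CPM in GCA (4 of 8 tested genes rose), and the intestinal factor CDX2 averaged 30.8 CPM in CON and 36.7 CPM with GCA. Other intestinal markers were sparse: LGALS4 averaged 2.38 CPM, KRT20 0.916 CPM and VIL1 0.606 CPM in CON, and CDX1, CDH17 and GPA33 stayed below the filter. Leukocyte markers summed to 27.7 to 31.7 CPM in CON and 32.0 to 41.6 CPM in GCA, mostly CD68 and CORO1A. Cardiomyocyte markers summed to 23.5 to 26.8 CPM in CON and 37.2 to 42.4 CPM in GCA, nearly all of it TNNI3, with MYL2 next. TNNI3 rose (0.68 ± 0.12, adjusted p = 0.00136 in edgeR's test), and MYL2 did not pass (-0.73, adjusted p = 0.135). TNNT2 stayed below the filter, with counts of 1, 1 and 0 in CON and 2, 11 and 10 in GCA. MYH6, MYH7, ACTC1 and NPPA had 0 counts in each GCA library. Fibroblast and endothelial markers summed to 11.3 to 12.7 and 16.7 to 18.4 CPM, mostly COL1A1 and VWF. The part of these shifts in the repair gene values was not tested.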

How the data were processed

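RNA-seq libraries of 3 GCA and 3 CON samples were analysed from the deposited raw counts per gene symbol. The authors also deposited FPKM values, which equal the count over library total and 1 length per gene for 16229 of 16229 genes (relative tolerance 1e-09). Tools listed in the submitters' processing notes are HISAT2 2.2.1.0, fastp 0.20.1 and HTSeq 0.11.2, with the build hg38. The sources used here give no annotation release, strand setting or filter. Total counts per library were 18057453 to 20531612, and a floor of 3 counts equals 0.146 to 0.166 CPM, for counting error only.

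GCA was compared with CON by edgeR 4.0.16 in R 4.3.3 (TMM, filterByExpr with minimum count 10 and total 15, quasi-likelihood test, Benjamini-Hochberg over all tested genes, threshold 0.05), after a test on simulated data. SE is the size of the log2 fold change over the square root of F. CPM values use TMM-scaled totals. GC content is that of the longest GENCODE release 29 transcript (99.2% of genes), and the offsets are natural splines (5 degrees of freedom each) of GC content and log length per library, with gene positions from NCBI's GRCh38.p14. Ratios were tested with scipy 1.17.1. Alternatives were other scalings and filters, DESeq2 1.42.0, limma 3.58.1 on voom and on log2(FPKM + 1) or log2(FPKM + 0.1), the replicate block, the offsets and left-out libraries. Same-numbered libraries of the groups deviated together, with correlations of 0.206, 0.137 and 0.104 across genes, each over the limit of 0.1. Differently numbered ones gave -0.172 to 0.0954, so the lowest same-numbered value lay just above the highest of these. The numbers from the sample titles served as a block in alternative fits only. edgeR values given without a named alternative come from the unpaired fit, because no label says what a number marks.

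All 37 repair genes are accounted for, with library values for mismatch repair genes, the 12 of lowest p and those whose call changes with the offsets, block or left-out libraries. Up to 3 called genes of lowest p in each further list and the 2 most abundant of each marker list are named; PCNA was added after its values were seen. Members and lists were chosen with earlier results of these data known. Some genes of these pathways are not reported here.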

Additional observations from a re-analysis of the deposited data

How the results depend on the processing

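Of 719 values of single repair genes over 20 alternatives, 616 kept direction and side of the threshold. The number of all tested genes that rose or fell was 2307 and 2277; 1516 rose with the GC and length offsets, and 3710 rose and 3709 fell without replicate 1 of both groups. Over the 6 left-out libraries these counts ran from 1493 to 3225 (rises) and from 1128 (without GCA 3) to 3482 (falls, without CON 1). Repair genes that rose numbered 2, 0 with the offsets with or without the block, 5 without replicate 1 of both groups and 1 to 5 over the left-out libraries, and those that fell went from 12 to 19 without replicate 1 of both groups. Further pathway genes that rose went from 1 to 12 without replicate 1 of both groups and ran from 1 to 8 (without CON 1). The median of the repair genes ran from -0.36 to -0.23 over the left-out libraries. The cause was not tested.

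The replicate block gave 15 falls and 3 rises among the 36 repair genes (2645 and 2518 among all tested genes). With block and offsets together 17 fell and 0 rose (20.9% and 14% of all tested genes). The block alone added MSH6, UNG, PARP1 and ERCC1 and lost no call.

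Values that changed sign, all but that of ERCC2 uncalled in the fit without alternatives, are given on the log2 scale. With the offsets they were MLH3 0.10, NTHL1 -0.38, NEIL1 -0.061, XRCC1 -0.20, DDB2 -0.12, ERCC6 0.24, ERCC2 -0.0013 and XPA 0.082. With block and offsets together they were MLH3 0.11, NTHL1 -0.37, NEIL1 -0.056, XRCC1 -0.20, DDB2 -0.12, ERCC6 0.24 and XPA 0.083. SMUG1 stood at 0.0078 with DESeq2 size factors, 0.0079 with DESeq2 and 0.020 with the filter of 1 CPM in 3 libraries. DDB2 stood at -0.0086 with upper-quartile scaling, -0.034 with library size alone, -0.0335 with log2(FPKM + 1) filtered or not, and -0.0345 with log2(FPKM + 0.1). Without replicate 1 of both groups SMUG1 was 0.12, OGG1 0.16, APEX2 0.021, DDB2 -0.13 and XPA 0.0080. Over the left-out libraries the ranges were -0.054 to 0.072 (SMUG1), -0.12 to 0.15 (OGG1), -0.10 to 0.047 (APEX2), -0.083 to 0.11 (DDB2) and -0.28 to 0.053 (ERCC6). Counts under 30 per library limit what MSH3 and ERCC5 can show.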

Other observations

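CON 1 departed from the mean of CON 2 and CON 3 in opposite directions for different repair genes. It held 1.70 times their mean CPM for NTHL1, 1.54 times for UNG, 1.39 times for OGG1 and 1.34 times for MSH6. It held 0.447 of their mean for MSH3, 0.598 for MLH3, 0.648 for MBD4 and 0.675 for NEIL1. The coefficient of variation in CON was 1.65% for APTX, 2.61% for RAD23B, 2.84% for PMS1 and 3.13% for PARP2, and 39.6% for MSH3, 32.7% for NTHL1 and 26.6% for UNG. These genes were chosen after their values were seen.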
